A study of Mus musculus with 51 samples.

Results

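The replication licensing genes are described here by the histone peaks called at their promoters during meiotic prophase I, after the last S phase of the male germ line. The 10 genes were chosen by function: Mcm2, Mcm3, Mcm4, Mcm5, Mcm6, Mcm7, Pcna, Cdc6, Cdt1 and Gmnn. They were 10 of 20722 protein-coding genes on chromosomes 1 to 19, and together had 25 coding transcription start sites (TSSs) in GENCODE M21 on the mm10 genome. A gene was called in a peak list when a peak lay within 500 bp of the 5′ end of a protein-coding transcript, and the width of its widest such peak was recorded in bp. A peak was found in at least 1 list at 8 of the 10 genes, and at Mcm4 and Pcna none was found.

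All nuclei came from whole testis of wild-type C57Bl/6J adult male mice, and no group carried a mutation or a treatment. Formaldehyde-fixed nuclei were sorted by flow cytometry into leptonema (LE), zygonema (ZY), early pachynema (EP), late pachynema (LP) and diplonema (DI). Peak lists were at hand for 20 of the 51 samples. For H3K4me3 there were 10, made with the EpiCypher antibody in experiments 1 and 2 of each stage. The Abcam antibody, used in experiment 2, recognizes the dimethyl form too and gave 5 lists, named H3K4me2/3 here. The remaining 5 were of H3K9ac in experiment 1. The sorted populations are enriched and not pure. Leptonema was sorted on STRA8 in a run of its own and the other stages on H1t and SCP1, so that leptonema and its sort cannot be told apart. With bulk populations, a mark on fewer nuclei and less mark per nucleus cannot be told apart either. The labels number the experiments without saying whether they came from separate animals, so that p-values measure only the spread between these libraries.

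Origins of replication are licensed in G1, when the origin recognition complex, CDC6 and CDT1 load the ring-shaped MCM helicase, built of the subunits MCM2 to MCM7, onto DNA. Geminin, the product of Gmnn, binds CDT1 and prevents loading again in the same cycle, and PCNA is the sliding clamp that holds polymerases on DNA once synthesis begins. Transcription of many of these genes is driven by E2F factors ahead of S phase. H3K4me3 marks the promoters of active or poised genes, H3K4me2 extends around it, and H3K9ac accompanies transcription. Male germ cells replicate for the last time before leptonema, and no further S phase follows before fertilization.

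The promoters of 4 of the genes are shown because they stand for the patterns described below. Mcm7 had a peak in every H3K4me3 list, and Mcm5 had H3K4me3 peaks only up to early pachynema. Mcm2 had H3K4me3 peaks only at leptonema, and Pcna had no peak in any list. The sequences are those of RefSeq on GRCm38.p6, each of 300 bases that run from 250 before to 50 after the RefSeq start, and 8 of the 10 genes matched an entry in that table. They lie at chr5:138171834-138172133 (minus strand) for Mcm7, chr8:75109259-75109558 (plus strand) for Mcm5, chr6:88898731-88899030 (minus strand) for Mcm2 and chr2:132253131-132253430 (minus strand) for Pcna. Capitals mark matches on either strand to the E2F words TTTCCCGC, TTTCGCGC, TTTGCCGC and TTTGGCGC and to the CCAAT box, CCAAT, some of which overlap each other.
Mcm7: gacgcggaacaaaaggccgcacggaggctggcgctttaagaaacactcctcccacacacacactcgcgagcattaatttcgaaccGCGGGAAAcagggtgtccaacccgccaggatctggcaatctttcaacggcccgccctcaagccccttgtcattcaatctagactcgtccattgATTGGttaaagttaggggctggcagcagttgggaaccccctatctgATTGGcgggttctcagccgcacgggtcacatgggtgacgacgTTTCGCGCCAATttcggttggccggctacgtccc
Mcm5: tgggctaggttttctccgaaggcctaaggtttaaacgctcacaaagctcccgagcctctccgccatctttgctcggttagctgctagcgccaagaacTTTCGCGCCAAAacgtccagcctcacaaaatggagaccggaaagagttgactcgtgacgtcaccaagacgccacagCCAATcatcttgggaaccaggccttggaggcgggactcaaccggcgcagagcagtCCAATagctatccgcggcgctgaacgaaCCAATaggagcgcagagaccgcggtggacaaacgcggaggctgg
Mcm2: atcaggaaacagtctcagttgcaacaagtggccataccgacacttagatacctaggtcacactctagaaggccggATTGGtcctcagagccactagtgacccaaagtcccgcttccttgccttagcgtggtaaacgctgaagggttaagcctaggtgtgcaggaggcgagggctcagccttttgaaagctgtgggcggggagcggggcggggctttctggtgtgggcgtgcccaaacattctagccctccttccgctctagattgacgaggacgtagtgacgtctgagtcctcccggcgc
Pcna: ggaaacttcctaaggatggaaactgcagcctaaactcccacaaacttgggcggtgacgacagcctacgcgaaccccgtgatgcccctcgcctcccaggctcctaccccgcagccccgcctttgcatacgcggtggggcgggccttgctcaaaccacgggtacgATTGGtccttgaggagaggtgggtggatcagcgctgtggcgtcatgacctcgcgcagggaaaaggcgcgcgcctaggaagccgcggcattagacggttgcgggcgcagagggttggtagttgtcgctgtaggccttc

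An E2F word was present in 2.87% of 19167 promoters of the same length, a CCAAT box in 37.5% and a GC box (GGGCGG, either strand) in 48.3%. The Mcm7 and Mcm5 promoters shown held 2 E2F words and 3 CCAAT boxes each. A second Mcm7 entry of the table, at chr5:138171217-138171516, held no E2F word and 1 CCAAT box, and was covered in full by the peaks of 6 H3K4me3 lists. Mcm3 held 2 E2F words, Mcm6 held 3, and Cdc6 and Cdt1 held 1 each. Mcm2 and Pcna held none of these 4 words and 1 CCAAT box each. The stretch shown for Mcm7 was covered in full by the peaks of all 10 H3K4me3 lists and that of Mcm5 by the peaks of 6, whereas that of Mcm2 was covered by the peak of 1 list and that of Pcna was not touched. The ratio of observed to expected CpG was 0.978 in Mcm7, 1 in Mcm5, 0.652 in Mcm2 and 0.875 in Pcna, against a median of 0.601 over all promoters. Of the 3993 promoters with a ratio at or above that of Pcna, 3.91% belonged to a gene without a peak in any list. Over all promoters this share was 28.2%. A match is a description of the letters and not of binding.

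H3K4me3 peaks at the licensing genes were most often called at leptonema. In the H3K4me3 lists of experiments 1 and 2, 8 and 8 of the 10 genes were called at LE, 5 and 6 at ZY, 5 and 5 at EP, 4 and 5 at LP and 3 and 6 at DI. The shares of all genes called in the same lists were 38.7% and 46.3% at LE, 36.2% and 35.3% at ZY, 33.6% and 25.2% at EP, 26.4% and 39.7% at LP and 28.7% and 46% at DI. Requiring both libraries of a stage left 8 genes at LE, 5 at ZY, 5 at EP, 4 at LP and 3 at DI, where all genes gave 38.1%, 32.4%, 24.9%, 25.8% and 28.6%. The licensing genes thus went from 80% to 30% in this count. At diplonema 3 genes of 10 was close to the share of all genes, and the experiments differed most there. When every list was cut to the 4883 widest peaks, the length of the shortest, the counts in both libraries were 2, 1, 3, 2 and 2 from leptonema to diplonema, and no decline across stages was left. With only the peaks wider than the median of each list, they were 3, 1, 2, 2 and 2.

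**Figure D1:**
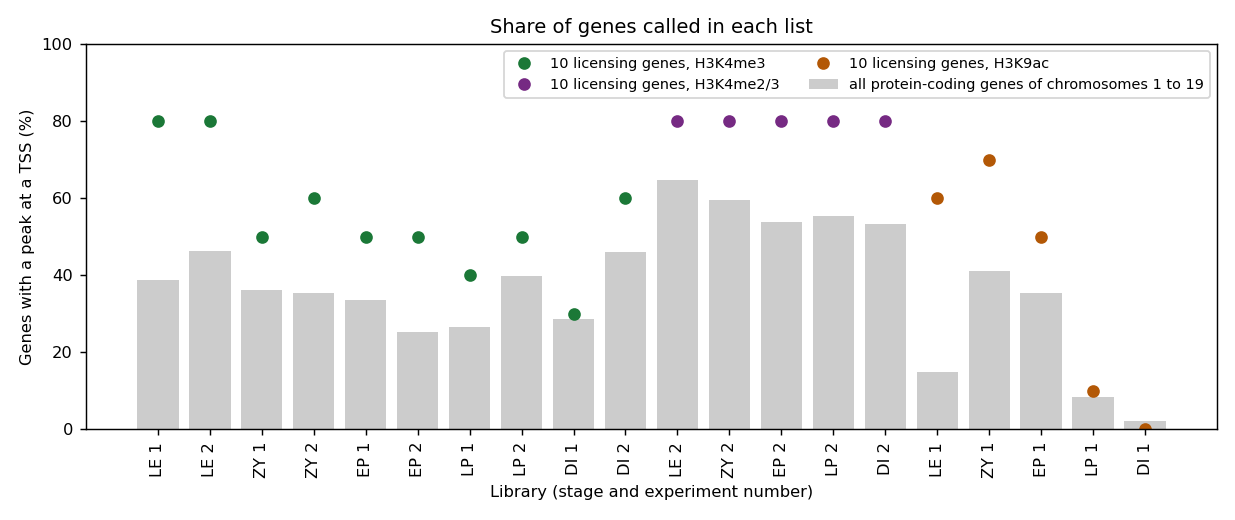
Share of genes with a peak at a TSS (%, y axis) in each of the 20 lists (x axis, stage and experiment number). Grey bars are all 20722 protein-coding genes and points are the 10 licensing genes, which stand at 80% in both H3K4me3 lists of leptonema and in all H3K4me2/3 lists, and at 30% to 60% in the H3K4me3 lists of the later stages.

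Mcm7 had the widest H3K4me3 peak of the 10 genes in 7 of 10 lists and the widest H3K4me2/3 peak in all 5. It encodes a helicase subunit and its 7 coding TSSs lie between 138170661 and 138172422 on chromosome 5, minus strand. The H3K4me3 peak was 1173 and 1384 bp wide at LE, 1305 and 1263 bp at ZY, 1157 and 934 bp at EP, 887 and 899 bp at LP and 847 and 1532 bp at DI. The 10 lists overlapped across stages, and the diplonema libraries held both the narrowest and the widest of these peaks. A peak in all 10 H3K4me3 lists was found at 18% of all genes, and of the licensing genes at Mcm7 and Gmnn. The promoter of Mcm7 is shared with Ap4m1, an adaptor protein gene on the plus strand whose TSS lies 160 bp away and which was called in 18 lists, so that a peak here cannot be assigned to either gene. All 10 H3K4me3 peaks lay on the Mcm7 side, downstream of its first TSS, and the widest ran from 37 bp to 1568 bp.

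Mcm5 was called in all H3K4me3 libraries up to early pachynema and in none later. It encodes another helicase subunit, with coding TSSs from 75109569 to 75109624 on chromosome 8, plus strand. Its H3K4me3 peak was 1014 and 1418 bp wide at LE, 646 and 673 bp at ZY, 914 and 545 bp at EP, and none was called in the 4 libraries of LP and DI. The same calls over the 10 lists were made at 19 genes, 0.0917% of all genes. Relative to the median gene of the same library, the width of these peaks was 1.36 ± 0.0737 (SD, n = 2) at leptonema, 0.887 ± 0.150 at zygonema and 1.22 ± 0.0998 at early pachynema. Relative width is the peak width divided by the median over the 3729 genes called in all 10 H3K4me3 lists, so that 1 stands for the median gene. The H3K4me3 peaks of Mcm5 were therefore about as wide as the median or wider until early pachynema, and were missing from late pachynema onwards.

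Mcm2 had H3K4me3 peaks at leptonema only. This helicase subunit gene has a single coding TSS at 88898780 on chromosome 6, minus strand. The peak was 222 bp wide in experiment 1, between 124 bp and 345 bp downstream of the TSS, and 893 bp wide in experiment 2, from -422 bp to 470 bp relative to the TSS. No peak was called in the 8 libraries outside leptonema. The 2 leptonema values differ severalfold, and the narrow peak of experiment 1 did not reach the TSS. Calls in both leptonema lists and no other were made at 208 genes, 1% of all genes.

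Mcm3 and Mcm6, both helicase subunit genes on chromosome 1, minus strand, were called in every H3K4me3 list except experiment 1 of diplonema, a pattern of 445 genes or 2.15%. At Mcm3 (TSS at 20820312) the width was 441 and 714 bp at LE, 197 and 332 bp at ZY, 272 and 238 bp at EP, 297 and 214 bp at LP, and 298 bp in the DI library with a call. Both leptonema values lay above all the others. At Mcm6 (TSSs at 128359647 and 128359664) the width was 434 and 667 bp at LE, 485 and 352 bp at ZY, 295 and 498 bp at EP, 209 and 153 bp at LP and 255 bp in the same DI library. The late pachynema and diplonema values of Mcm6 lay below those of every earlier library, on the scale of bp. Wherever they were called, both genes had narrower peaks than the median gene, except for Mcm6 in experiment 2 of early pachynema.

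Mcm4, the remaining helicase subunit gene, had no peak in any of the 20 lists, like 32.5% of all genes. Its 3 coding TSSs lie between 15635306 and 15637400 on chromosome 16, minus strand, and Prkdc, the gene of the catalytic subunit of DNA-dependent protein kinase, starts 466 bp away on the plus strand and was not called either. The nearest peak of the 15 H3K4me3 and H3K4me2/3 lists was between 27882 bp and 225140 bp from a Mcm4 TSS, with a median of 42791 bp. None of the 50-bp words of the region around its TSSs occurred elsewhere on the 21 chromosomes searched.

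**Figure D2:**
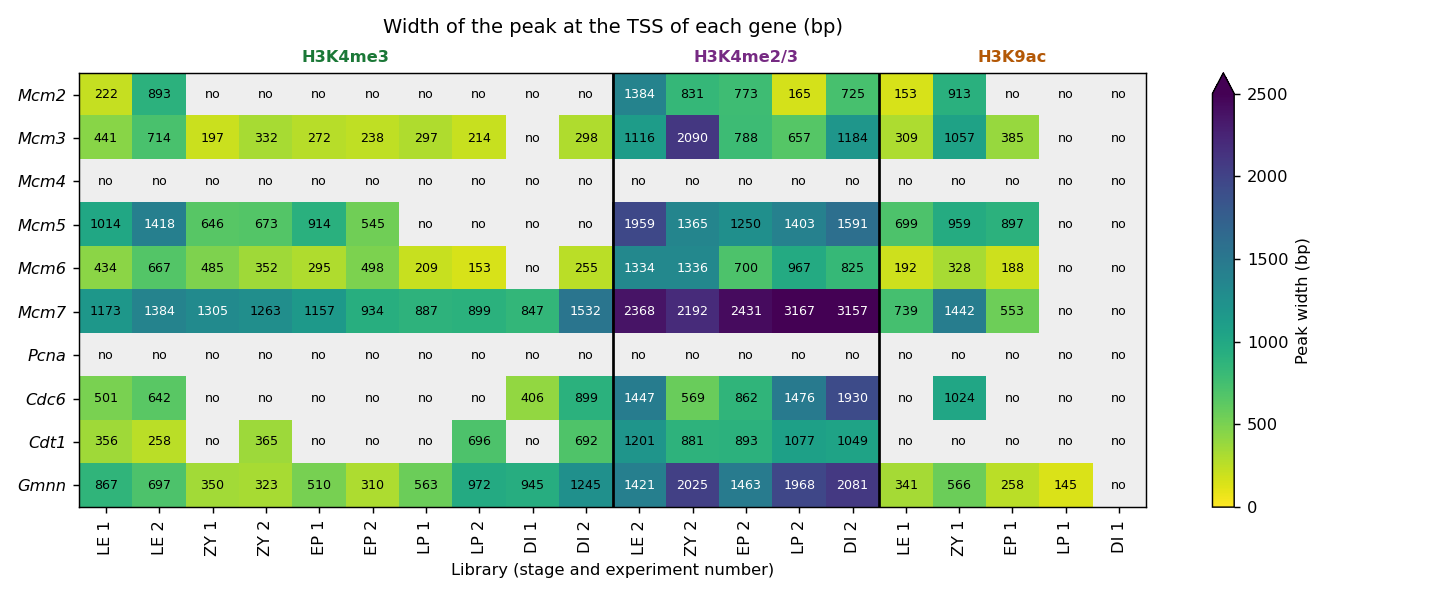
Width in bp of the peak at the TSS of each licensing gene (rows) in each list (columns, stage and experiment number, grouped by antibody), with colour giving the width and "no" marking a list without a peak. Mcm5 has H3K4me3 peaks up to early pachynema, from 545 to 1418 bp, and H3K4me2/3 peaks at all stages, and Mcm4 and Pcna are empty throughout.

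The loading factors were called less regularly. Cdc6, which brings the helicase to the origin, has TSSs at 98907801 and 98908151 on chromosome 11, plus strand. Its H3K4me3 peak was 501 and 642 bp wide at leptonema and 406 and 899 bp at diplonema, and no peak was called in the 6 libraries between. Peaks in both leptonema and both diplonema lists and nowhere else were found at 9 genes, 0.0434% of all genes. The relative width was 0.642 ± 0.00482 (SD, n = 2) at leptonema and 0.583 ± 0.146 at diplonema.

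Cdt1, the partner of CDC6 in loading, has its TSS at 122568015 on chromosome 8, plus strand. It was called at 356 and 258 bp in both LE libraries and then only in experiment 2, at 365 bp in ZY, 696 bp in LP and 692 bp in DI. At each of these 3 stages experiment 1 had no peak, so that within a stage the libraries did not give the same call. The peaks of the leptonema libraries did not overlap each other, with 1 spanning the TSS and the other lying from -355 bp to -98 bp relative to it.

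Gmnn, the gene of geminin, was called in every H3K4me3 list, with its widest peak, 1245 bp, in experiment 2 of diplonema. Its 4 coding TSSs lie between 24761440 and 24761923 on chromosome 13, minus strand. The H3K4me3 peak was 867 and 697 bp wide at LE, 350 and 323 bp at ZY, 510 and 310 bp at EP, 563 and 972 bp at LP and 945 and 1245 bp at DI. In bp, the peaks of the ZY and EP libraries were all narrower than those of LE, LP and DI. In relative width the stages stood at 0.905 ± 0.300 (SD, n = 2), 0.450 ± 0.0376, 0.687 ± 0.0469, 1.05 ± 0.0300 and 1.03 ± 0.117 from leptonema to diplonema. The values of LP and DI did not differ beyond their spread, and LE overlapped with EP, LP and DI.

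Pcna, the sliding clamp, had no peak in any list. Its TSS lies at 132253314 on chromosome 2, minus strand, 43 bp from that of the antisense transcript AV099323. The nearest peak of each H3K4me3 and H3K4me2/3 list was 4573 to 5687 bp away, in all 15 lists. Of the 50-bp words within 500 bp of the TSS, 15.2% occurred more than once in the genome, against 0% to 6.09% at the other genes. The part of these repeats in the missing call was not tested.

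**Figure D3:**
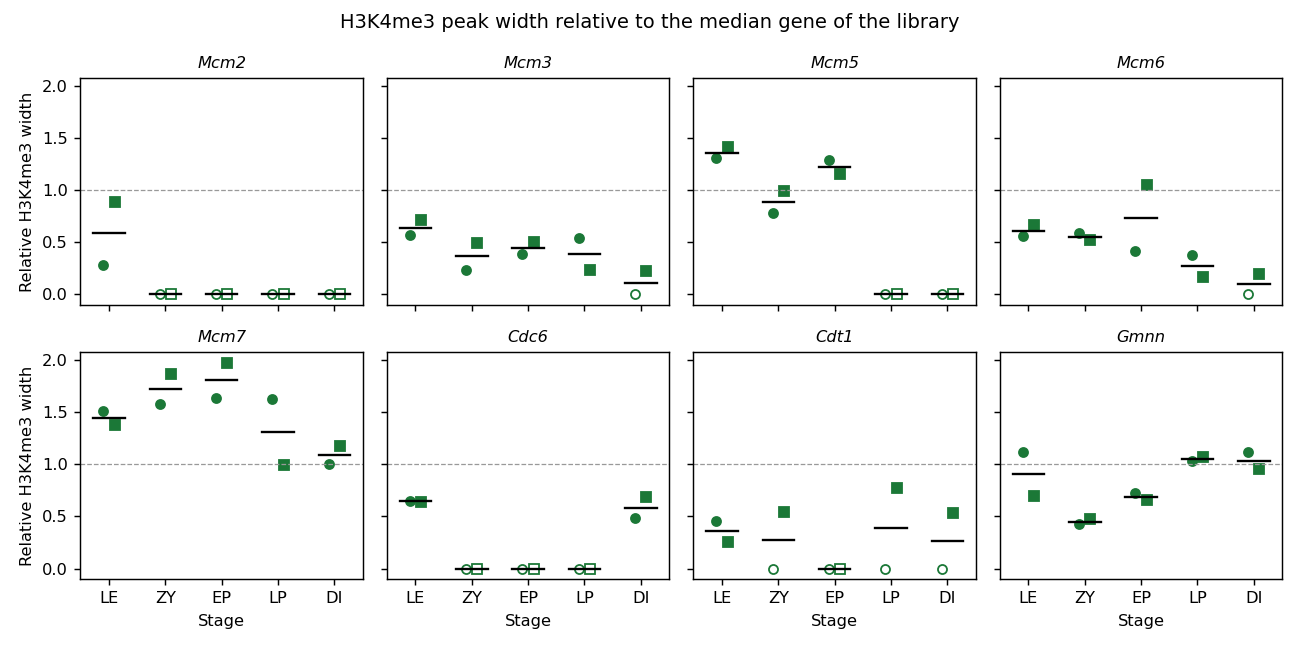
H3K4me3 peak width relative to the median of the 3729 genes called in all lists (y axis, dashed line at 1) for the 8 licensing genes with a peak, by stage (x axis). Circles are experiment 1, squares experiment 2, open symbols are libraries without a peak and bars are stage means of 2 libraries. Mcm5 goes from 1.22 at early pachynema to no peak at late pachynema, and Gmnn lies lowest at zygonema at 0.450.

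The early stages, LE and ZY (4 libraries), were compared with EP, LP and DI (6 libraries) by a two-sided exact permutation test per gene on mean relative width, with no peak taken as 0. The question was whether promoters of genes used in S phase are marked more broadly in the stages nearest to it. The test called 0 of 11215 genes at an adjusted p of 0.05 (0%), and 2643 genes (23.6%) had an unadjusted p below 0.05, none of them a licensing gene. In other settings of the same test 3 licensing genes had an unadjusted p below 0.05. They were Gmnn with equal list sizes and without experiment 1 of leptonema, Mcm5 with widths in bp and without either experiment of early pachynema, and Mcm6 with widths in bp and without experiment 2 of early pachynema. With 210 arrangements the smallest p was 0.00476, which 806 genes reached, and the smallest adjusted p was 0.0663. Mcm5 had a mean relative width of 1.12 in the early and 0.407 in the late libraries (exact permutation p = 0.0905, adjusted p = 0.298). Mcm2 had 0.294 against 0 (exact permutation p = 0.133, adjusted p = 0.344), and Mcm3 had 0.502 against 0.315 (exact permutation p = 0.181, adjusted p = 0.425). Gmnn was the gene with the lower early mean, 0.678 against 0.924 (exact permutation p = 0.162, adjusted p = 0.393). The adjusted p was 0.563 for Mcm6, 0.639 for Mcm7 and 0.841 for both Cdc6 and Cdt1 in the same exact permutation test. None of the 8 differences passed this test.

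In the fit with limma over the 3729 genes with a peak in every H3K4me3 list, only Mcm7 and Gmnn could be tested. There, 8.66% of genes differed between early and late stages and 0.322% between leptonema and the later stages. For Gmnn the log2 difference of early against late was -0.53 ± 0.21 (SE), with an adjusted p of 0.136 in limma. For Mcm7 it was 0.22 ± 0.22 with an adjusted p of 0.551. Leptonema against the later stages gave 0.21 ± 0.26 for Gmnn (adjusted p = 0.720, limma) and 0.0097 ± 0.27 for Mcm7 (adjusted p = 0.987, limma).

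After these results were seen, limma was also fitted to log2(relative width + 0.25) over the 11215 genes with 1 or more peaks. It found 8.92% of genes wider early and 5.71% wider at leptonema than at later stages, and 3.64% and 1.13% narrower in the same order. Mcm5 was wider early by 1.58 ± 0.15 on this log2 scale (adjusted p = 0.00141, limma), in 4 of 4 early libraries against 2 of 6 late ones with a peak. At leptonema, Mcm5 (1.50 ± 0.19, adjusted p = 0.00432), Mcm2 (1.64 ± 0.28, adjusted p = 0.0151) and Cdc6 (1.40 ± 0.19, adjusted p = 0.00601) were wider than at later stages in limma. For Cdc6 the diplonema libraries held peaks of a width like that of leptonema. Mcm2 early against late stood at 0.82 ± 0.23 (adjusted p = 0.0580, limma), which was 0.0244 without experiment 2 of leptonema and 4.24e-05 without experiment 1. The early difference of Cdc6 had an adjusted p of 0.185 in limma, and of 0.0322 without experiment 1 of diplonema. Stages without any peak have no spread here, so that these errors are too small. For Mcm3, Mcm6, Mcm7, Cdt1 and Gmnn neither contrast passed, with adjusted p from 0.185 to 0.996 in limma. Without experiment 1 of leptonema, Gmnn was narrower early by a log2 difference of -0.51 (adjusted p = 0.00731, limma).

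Among markers of other testis cells, some of Sertoli cells and spermatogonia had H3K4me3 peaks at leptonema, more of them in experiment 2 than in experiment 1. Of 4 Sertoli cell markers measured, Sox9, Wt1 and Gata4 had H3K4me3 peaks in experiment 2 of leptonema, with a summed width of 6086 bp, and none did in experiment 1. Amh was at 0 in all lists. In the later stages the only such peak was one of 245 bp at Wt1 in experiment 2 of zygonema. Of 6 spermatogonia markers, Dmrt1 was called in both leptonema libraries and in experiment 1 of zygonema and Kit in experiment 2 of leptonema, with Zbtb16, Sall4, Gfra1 and Nanos3 at 0 in all H3K4me3 lists. Of 3 Leydig cell markers, Insl3 had a peak of 288 bp in experiment 2 of diplonema, and no spermatid marker was called in any list. Stra8, on which leptonema was sorted, had H3K4me3 peaks in both leptonema libraries and in no other. Hist1h1t, the gene of the late sorting marker H1t, had H3K4me3 peaks of 258 bp in experiment 1 of leptonema and 747 bp in experiment 2 of zygonema and in no later library. Ahead of the STRA8 sort the nuclei had been gated on DNA content and on SCP3, a protein of the meiotic chromosome axis. The leptonema list of experiment 1 was the shorter, with 9528 peaks against 13095 in experiment 2. The same 8 licensing genes were called in both, and in experiment 1 Dmrt1 had a peak of 1262 bp. The limma fit chosen after seeing the data was repeated for leptonema against later stages with 1 leptonema library left out. Without experiment 2 the log2 difference was 1.10 for Mcm2, 1.46 for Mcm5 and 1.41 for Cdc6. Without experiment 1 it was 2.19 for Mcm2, 1.55 for Mcm5 and 1.40 for Cdc6. The part of other cells in the leptonema peaks was not tested.

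H3K4me2/3 was called at every stage, also where the H3K4me3 peak was missing. The Abcam lists, which are longer than those of H3K4me3, with 17561 to 30943 peaks, called the same 8 licensing genes at all 5 stages. All genes stood at 64.7% at LE, 59.4% at ZY, 53.7% at EP, 55.4% at LP and 53.3% at DI, and 47.8% had a peak at every stage. At Mcm5 the width was 1959 bp at LE, 1365 bp at ZY, 1250 bp at EP, 1403 bp at LP and 1591 bp at DI. At late pachynema and diplonema, where its H3K4me3 peak was not called, the H3K4me2/3 peak of Mcm5 was wider in bp than at early pachynema. The median peak of these lists was wider too, with 864 bp at EP, 1121 bp at LP and 1294 bp at DI. Within its list the Mcm5 peak was at least as wide as 69.9% of peaks at EP, 59.5% at LP and 59.7% at DI. At Mcm2 it was 1384 bp at LE, 831 bp at ZY, 773 bp at EP, 165 bp at LP and 725 bp at DI. Cdc6 had 1447 bp at LE, 569 bp at ZY, 862 bp at EP, 1476 bp at LP and 1930 bp at DI. In bp its narrowest value fell on ZY and its widest on DI. Within its list it ranked highest at LE, at least as wide as 77.0% of peaks, against 31.6% at ZY and 68.9% at DI. In the same lists 5 of 6 spermatogonia markers were called at LE, Zbtb16, Sall4 and Gfra1 among them, and 2 at DI, and their summed width was 12927 bp at LE, 7333 bp at ZY, 2726 bp at EP, 2486 bp at LP and 1074 bp at DI. Of the 4 Sertoli cell markers, 3 were called at LE with a summed width of 6638 bp and 1 at DI with 400 bp. Their part in the H3K4me2/3 widths of the licensing genes was not tested.

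The other H3K4me2/3 peaks ranged from 657 bp to 2090 bp at Mcm3, from 700 to 1336 bp at Mcm6, from 2192 to 3167 bp at Mcm7, from 881 to 1201 bp at Cdt1 and from 1421 to 2081 bp at Gmnn. Within experiment 2, where both antibodies were used at each stage, 10 of the 50 combinations of gene and stage had an H3K4me2/3 peak without an H3K4me3 peak, and 19% of all gene and stage combinations did. These 10 were 4 at Mcm2, 3 at Cdc6, 2 at Mcm5 and 1 at Cdt1. The reverse was seen in 0 of 50. For experiment 2 of early pachynema the paper lists a different purity and amount of chromatin for each antibody. At that stage the libraries of the antibodies thus did not share a preparation. With 1 library per stage, the H3K4me2/3 and H3K9ac values have no replicate check and no test was made.

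**Figure D4:**
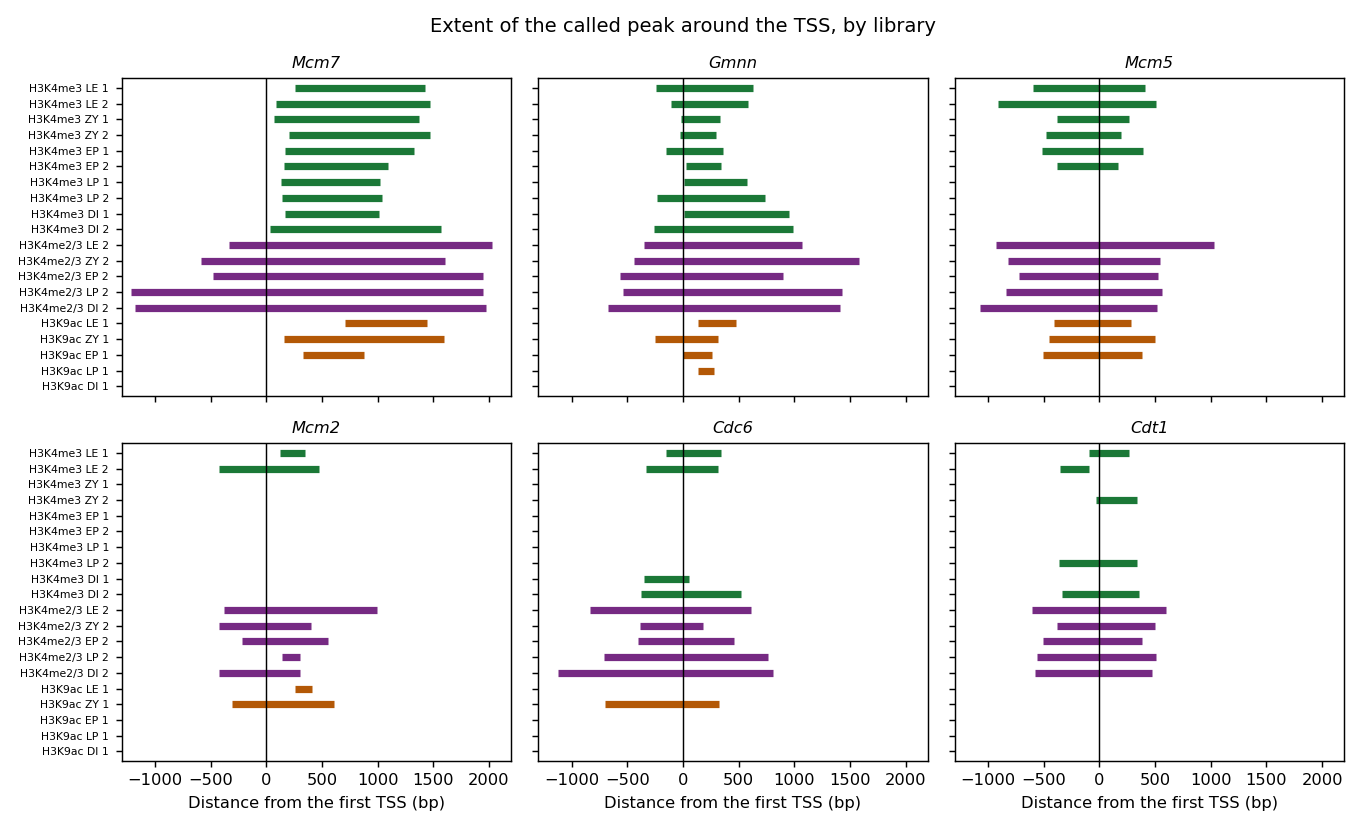
Extent of the called peak around the first TSS of 6 licensing genes (x axis, distance in bp in the direction of transcription, line at 0) in each list (y axis, antibody, stage and experiment number). Green is H3K4me3, purple H3K4me2/3 and orange H3K9ac. H3K4me2/3 peaks of Mcm5, Mcm2 and Cdc6 are present at every stage, and the H3K4me3 peaks of Mcm7 lie from 37 bp downstream of its first TSS onwards.

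H3K9ac was called at the licensing genes mainly in the first 3 stages. The numbers called were 6 of 10 at LE, 7 at ZY, 5 at EP, 1 at LP and 0 at DI, where all genes gave 14.8%, 41.1%, 35.3%, 8.27% and 1.99%. The lists themselves held 2823, 16003, 7744, 1727 and 516 peaks in the same order, and the low counts of the last stages were close to the share of all genes. The Gmnn peak of 145 bp was the only one at late pachynema. At zygonema the H3K9ac width was 1442 bp at Mcm7, 1057 bp at Mcm3, 1024 bp at Cdc6, 959 bp at Mcm5, 913 bp at Mcm2, 566 bp at Gmnn and 328 bp at Mcm6. Each of these 7 genes had its widest H3K9ac peak at zygonema, the stage with the longest list. The median peak of that list was wider too, with 787 bp against 417 bp at LE and 677 bp at EP. Within its list Mcm5 was at least as wide as 79.8% of peaks at LE and 62.6% at ZY. Gmnn stood at 38.7% at LE and 32.9% at ZY. Mcm2, Mcm3, Mcm6 and Mcm7 ranked highest within their lists at ZY, and Cdc6 had an H3K9ac peak at ZY alone. Mcm2 and Cdc6 had these peaks at zygonema although no H3K4me3 peak was called there, and they were 2 of 50 combinations of gene and stage in experiment 1 with H3K9ac and no H3K4me3 peak, against 2.12% of all genes and stages. Cdt1 had no H3K9ac peak at any stage. At zygonema 3 of the 6 spermatogonia markers had an H3K9ac peak, with a summed width of 2752 bp, and in the other H3K9ac lists none had. Their part in the H3K9ac peaks of the licensing genes was not tested.

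Other replication genes were also called most often at leptonema. Of 60 genes listed, 59 lay on the chromosomes measured. The numbers called for H3K4me3 in both experiments were 53 at LE, 42 at ZY, 27 at EP, 26 at LP and 29 at DI. These were 89.8%, 71.2%, 45.8%, 44.1% and 49.2%, where all genes gave 38.1%, 32.4%, 24.9%, 25.8% and 28.6%. The lowest share was at LP, whereas that of the licensing genes was at DI. These counts were made at full list lengths only. The 9 genes of origin recognition and its kinase numbered 9, 8, 6, 6 and 7 in the same order, and the 10 of helicase activation 10, 8, 7, 6 and 4. Among the 8 genes of G1/S control, which include E2F factors and cyclins, 7 were called at LE and ZY but 1 at EP, 2 at LP and 3 at DI.

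The 11 polymerase and primase genes numbered 9, 6, 4, 4 and 4, and the 11 genes of the clamp loader and Okazaki fragments 10, 5, 6, 3 and 5. Of the 5 genes of deoxynucleotide supply, 3, 3, 0, 2 and 2 were called. The 3 genes of single-strand binding numbered 3, 3, 1, 2 and 3, and Mcm8 and Mcm9, the relatives of the helicase subunits that act in recombination, numbered 2, 2, 2, 1 and 1.

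The exact permutation test of early against late passed none of the 58 tested genes after adjustment. At an unadjusted p below 0.05, 21 were wider early and 2 narrower, where all genes gave 2027 wider and 616 narrower. With equal list sizes these counts were 10 and 3 of 47 genes tested, and over all genes the direction turned, with 637 wider and 1039 narrower. In limma over genes called in all 10 H3K4me3 lists, 14 were tested, 3 were wider early and 0 narrower, with a median log2 difference of 0.49 against 0.00 over all genes tested. They were Orc4, an origin recognition subunit (1.37 ± 0.35, adjusted p = 0.0307), Rpa3, a subunit of the single-strand binding complex (1.24 ± 0.28, adjusted p = 0.0233), and Fen1, the flap nuclease of Okazaki fragments (1.00 ± 0.26, adjusted p = 0.0326). In the fit with limma chosen after seeing the data, 12 of 58 were wider early and 0 narrower, against 8.92% and 3.64% of all genes. At leptonema 2 of 58 were wider, a share no higher than the 5.71% of all genes. These were the polymerase subunit genes Pold1 (1.32 ± 0.18, adjusted p = 0.00656, limma) and Pole2 (1.18 ± 0.25, adjusted p = 0.0331, limma). Both had stages without any H3K4me3 peak, which have no spread, so that these errors are too small as well. Among the 12 was E2f3, a G1/S transcription factor (2.27 ± 0.44, adjusted p = 0.0195, limma). E2f3 had no H3K4me3 peak from early pachynema onwards. For it and for others of the 12 with stages without any H3K4me3 peak, the errors are too small too.

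**Figure D5:**
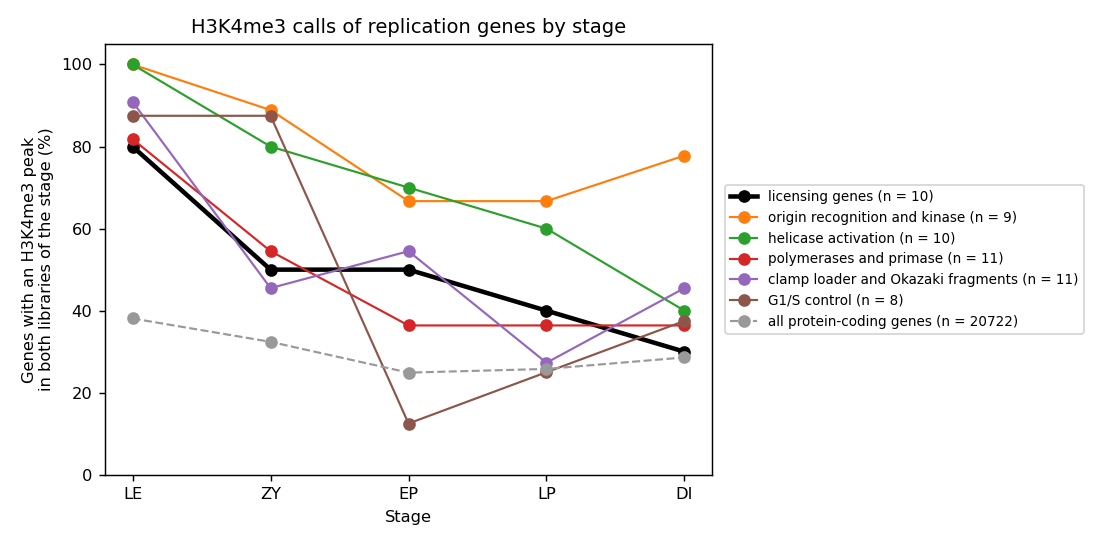
Share of genes called for H3K4me3 in both experiments of a stage (%, y axis) by stage (x axis) for the 10 licensing genes (black), 5 groups of other replication genes (colours) and all protein-coding genes (dashed grey). The licensing genes go from 80% at leptonema to 30% at diplonema, and all genes from 38.1% to 28.6%.

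The genes whose calls matched in all 20 lists and whose widths were closest were found for the 8 genes with a peak. Likeness was the mean absolute log2 difference of widths over the lists with a peak. For Mcm5 it was Ankrd37 (0.57 over 14 lists), for Mcm2 Samd14 (0.62 over 9 lists) and for Mcm7 Ankrd12 (0.22 over 18 lists). For Gmnn the closest were Hectd4 (0.36) and Pold3 (0.39), a subunit of DNA polymerase delta, over 19 lists. The closest were Jpt2 (0.41) for Mcm3 and Borcs5 (0.36) for Mcm6, both over 17 lists. For Cdt1 and Cdc6 they were Cdca7l (0.19) and Pard6g (0.41), both over 10 lists. The calls of Mcm5 over the 20 lists were shared by 5 other genes and those of Cdc6 by 3.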

How the data were processed

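Peak lists of 20 ChIP-Seq libraries were analysed. The authors aligned reads to mm10 with BWA mem 0.7.12 and called broad peaks with MACS2 2.1.2 in each library, for H3K4me3 against stage-matched input. For H3K9ac the control is not given in the sources used here. The deposited lists give the start and end of each peak in bp (a position, not a signal or score), so that the depth per sample and the precision of a call are unknown. A gene without a peak can carry the mark below the threshold. The paper set blacklisted regions aside when it matched peaks to hotspots and promoters. It does not state whether the lists used here had been through that step.

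Peaks were assigned to the coding TSSs of GENCODE M21 (500 bp on either side, 1 bp overlap) with Python 3.11.15 and numpy 2.4.6. Widths were divided by the median of the genes called in all 10 H3K4me3 lists. Genes were compared by exact permutation tests, which count arrangements with an absolute difference at least as large, and by limma 3.58.1 in R 4.3.3 with the 5 stages as groups, with Benjamini-Hochberg adjustment over all genes tested. Both steps were tested on simulated data. Promoter sequences were read from RefSeq and were identical to the genome. Named genes were the 10 licensing genes, overlapping neighbours, the genes closest in pattern, and list genes past a threshold (where over 4 passed, the 2 widest changes in each direction). The genes and lists were chosen with earlier results of these data known. The other 31 samples were not analysed here. A named gene that this rule gives is not reported here.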

Additional observations from a re-analysis of the deposited data

How the results depend on the processing

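The exact permutation test of early against late stages called 0 genes under every setting tried for it, but this says little about stability, because with 84 to 210 arrangements the smallest adjusted p was 0.0660 to 0.373 (0.0663 as reported). By contrast, limma on log2(relative width + 0.25), chosen after seeing the data, called 1408. Permuting within experiments, as a replicate block, also called 0. The deviations of experiment 1 from the mean of a stage correlated at -0.15 to 0.11 over 10 pairs of stages, with 2 above 0.1. They cover only genes called in all 10 H3K4me3 lists, so that they cannot settle whether the experiment numbers pair the libraries. With the block, limma called 336 genes in place of 323 for early against late and 14 in place of 12 for leptonema, and no call of a licensing gene changed. With widths in bp and no scaling, limma called 0 genes in both contrasts (526 and 307 at an unadjusted p below 0.05); the median of all genes then stood at 0.11 and 0.24 on the log2 scale. Without each library in turn, limma called 44 to 373 and 0 to 32 genes. Licensing genes in both H3K4me3 libraries numbered 2 and 3 at leptonema with equal list sizes and with the wider part of each list, 1 and 1 at zygonema, 3 and 2 at early pachynema and 2 and 2 at late pachynema. With equal list sizes H3K9ac was left at 1 licensing gene at leptonema and at 0 from zygonema to late pachynema, and with the wider part of each list H3K4me2/3 was left at 4 from early pachynema to diplonema. In single H3K4me3 libraries they numbered 8 to 8, 5 to 6, 5 to 5, 4 to 5 and 3 to 6 from leptonema to diplonema. The difference of early against late turned with equal list sizes to -0.11 for Mcm3, -0.15 for Mcm6 and -0.092 for Cdt1, and with the wider part of each list to -0.10 for Mcm6, -0.085 for Cdc6 and -0.090 for Cdt1. Without each library, the log2 difference of leptonema against later stages ran from -0.13 to 0.56 for Gmnn and from -0.080 to 0.085 for Mcm7. It turned without leptonema experiment 1 to -0.13 for Gmnn and -0.056 for Mcm7, and for Mcm7 also without zygonema experiment 1 (-0.020), early pachynema experiment 1 (-0.024), late pachynema experiment 2 (-0.080) and diplonema experiment 1 (-0.053). The cause of these changes was not tested, and none of these values passed a test.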
